A study of Mus musculus with 20 samples.

Results

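Of the 25655 genes counted in the mouse utricle, 7 genes of cholesterol synthesis were examined: *Hmgcs1*, *Idi1*, *Fdps*, *Sqle*, *Cyp51*, *Srebf2* and *Insig1*. They were chosen by name, as enzymes of the pathway (5 genes) and as its regulators (2 genes), and all 7 were present in the tables. The set had been put together under the heading of synthesis and uptake, but it contains no receptor or transporter, so that genes of uptake were taken from a separate list. Female C57BL/6J mice were operated on at 8 weeks of age, and the utricle, an otolith organ of the inner ear, was collected 4 weeks later. The sham + v group had a sham operation and a vehicle pellet. The OVX + v group was ovariectomized and had a vehicle pellet, the OVX + E2 group was ovariectomized and had a pellet with 50 µg of estradiol for 60 days, and the OVX + RAL group was ovariectomized and had a pellet with 2.4 mg of raloxifene, a selective estrogen receptor modulator, for 60 days. Each group had 5 libraries, made from 1 ng of total RNA of the whole organ by sequencing the 3′ ends of mRNA.

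Cells make cholesterol from acetyl-CoA. The mevalonate segment of the pathway ends in farnesyl diphosphate, which also feeds protein prenylation, and the sterol segment turns squalene into cholesterol. When sterols are low in the endoplasmic reticulum, the transcription factor SREBP-2, encoded by *Srebf2*, is carried by SCAP to the Golgi, cut there, and switches on the genes of the pathway, while INSIG proteins hold the complex back when sterols are plentiful. Estrogen is known to act on cholesterol handling in the liver, and cholesterol is a main component of myelin and of the membranes of sensory hair cells.

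Promoters are shown because the members are textbook targets of one factor, and the question was which letters they share. In the 250 bases before the start of the canonical transcript (GENCODE vM39, GRCm39), the core of a sterol regulatory element, TCACNCCAC, was found on either strand in 1 of the 7 genes, *Hmgcs1*, and in 1.12% of 21770 promoters of the same length. CCAAT, the box bound by NF-Y, a partner of SREBP, was found in 6 of 7 genes (36.5% of all promoters), GGGCGG, the GC box, in 5 of 7 (36.3%) and CACGTG, an E-box, in 1 of 7, *Insig1* (6.26%). Although some of these motifs could overlap by their letters, no match overlapped a match of another motif in the 7 promoters. The element of *Hmgcs1* lies 232 to 224 bases before the start, upstream of a pair of inverted CCAAT boxes. *Cyp51* was the member with neither the sterol element nor a CCAAT box, and its stretch is not shown. The 4 stretches below end before the first annotated base of the gene, with the element and the CCAAT boxes (read as ATTGG on the strand shown) in capitals. A match describes letters and not a bound site.
Hmgcs1, chr13:120151732-120151914, plus strand: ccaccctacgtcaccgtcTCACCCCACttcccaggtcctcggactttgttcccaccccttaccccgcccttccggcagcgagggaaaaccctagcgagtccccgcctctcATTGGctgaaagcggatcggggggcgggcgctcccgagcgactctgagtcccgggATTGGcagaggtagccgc
Sqle, chr15:59186632-59186868, plus strand: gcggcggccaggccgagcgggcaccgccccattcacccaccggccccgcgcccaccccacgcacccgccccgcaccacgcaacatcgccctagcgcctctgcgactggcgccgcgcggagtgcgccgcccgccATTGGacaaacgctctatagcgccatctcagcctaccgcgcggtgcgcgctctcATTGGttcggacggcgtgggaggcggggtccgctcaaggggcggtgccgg
Insig1, chr5:28276077-28276314, plus strand: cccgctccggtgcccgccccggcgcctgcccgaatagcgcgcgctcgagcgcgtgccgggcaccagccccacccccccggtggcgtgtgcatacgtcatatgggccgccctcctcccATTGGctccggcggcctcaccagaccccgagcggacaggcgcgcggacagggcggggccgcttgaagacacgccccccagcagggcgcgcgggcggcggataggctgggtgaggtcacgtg
Srebf2, chr15:82031132-82031381, plus strand: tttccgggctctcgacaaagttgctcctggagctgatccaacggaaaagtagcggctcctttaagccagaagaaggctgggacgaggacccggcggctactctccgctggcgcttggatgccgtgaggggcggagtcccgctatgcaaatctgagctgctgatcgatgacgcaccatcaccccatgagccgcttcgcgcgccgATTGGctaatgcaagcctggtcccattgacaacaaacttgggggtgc
*Hmgcs1* and *Sqle* each hold a pair of inverted CCAAT boxes, and *Insig1* and *Srebf2* hold 1 each. Among the 49 other genes of the lists used below, the sterol element was found in 2, the CCAAT box in 22, the GC box in 25 and the E-box in 6.

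The libraries held between 1123053 and 2081747 counts, so that 3 counts, taken as detected, correspond to 1.44 to 2.67 CPM, a unit in which counts are scaled to one common library total. The totals of the OVX + E2 libraries (1123053 to 1507667) all lay below those of the OVX + RAL libraries (1702313 to 2081747). Genes with a count numbered 7427 to 9680 in the OVX + E2 libraries. This was fewer than in any OVX + v (10004 to 10694) or OVX + RAL library (10103 to 10290). In the sham + v group they numbered 10625 in replicate 1 and 8651 to 9511 in the others. The tissue label was checked by markers: *Otog* of supporting cells was at 1049 to 4099 CPM, *Coch* of fibrocytes at 4164 to 8548, *Myo6* of hair cells at 191 to 589, *Atp1b2* of dark cells at 472 to 2057, *Dct* of melanocytes at 311 to 1461 and *Nefm* of neurons at 32.1 to 272. Of other cells, *Cfd* of adipocytes was at 0 to 34.1 CPM, *Myh4* of muscle at 0 to 120, *Ibsp* of osteoblasts at 0 to 174, *C1qc* of macrophages at 0 to 191 and *Hba-a2* of red cells at 84.9 to 1260. Each is the most abundant gene of its marker list, and others were missing from many libraries. Of neurons, *Prph*, *Thy1* and *Nefh* had no count in 19, 15 and 13 of the 20 libraries. The same held for *Tyrp1* (15) and *Tyr* (11) of melanocytes, *Cdh23* of hair cells (13), *Oc90* of the supporting cell list (12) and *Bsnd* of dark cells (9). By summed markers, OVX + RAL replicate 16 and sham + v replicate 1 stood apart from the other 18 libraries. Fibrocyte markers were at 13426 and 11705 CPM in this pair (5868 to 10876 in the others), dark cell markers at 1212 and 1089 (1524 to 3381) and supporting cell markers at 1517 and 1860 (2482 to 4879). In whole organs, fewer cells of a type and less RNA per cell cannot be told apart. The labels do not say whether the 5 libraries of a group are 5 mice, and p-values measure the spread between these libraries.

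None of the 7 genes passed the test in any of the 4 comparisons made. In the quasi-likelihood test of edgeR, adjusted over all genes by the Benjamini-Hochberg method, 0 of 28 member comparisons (7 genes, 4 comparisons) passed an adjusted p of 0.05, and 0 had an unadjusted p under 0.05. DESeq2 and limma also called 0 after adjustment, although DESeq2 gave no adjusted p for *Idi1* for sham + v or OVX + E2 against OVX + v. Before adjustment, the p of DESeq2 was 0.0449 for *Sqle* between sham + v and OVX + v (adjusted p = 1.00) and 0.0126 for *Fdps* between OVX + E2 and OVX + RAL (adjusted p = 0.513). With limma on log2(CPM + 1) the unadjusted p was 0.0288 for *Sqle* between sham + v and OVX + v, and for *Cyp51* 0.00333 between OVX + RAL and OVX + v and 0.00478 between OVX + E2 and OVX + RAL. The share of all tested genes that passed was 0.0145% between sham + v and OVX + v, 0.0584% between OVX + E2 and OVX + v, 0.0286% between OVX + RAL and OVX + v, and 0.0727% between OVX + E2 and OVX + RAL. An unadjusted p under 0.05 was found for 12.5%, 13.9%, 12.1% and 14.1% of all genes in the same order of comparisons. Groups without overlap, in either direction, were found for 0.499%, 0.832%, 0.578% and 0.909% of all genes, and for 1 of the 28 member comparisons. An exact permutation p under 0.05 before adjustment was found for 3.85%, 5.18%, 4.14% and 5.32% of all genes, and for 4 of the 28. After adjustment over all genes it was found for 0. The smallest p that 5 against 5 libraries allow is 0.00794, so that a gene can pass adjustment only if a large share of all genes comes this low. The adjusted p values of this test, also those given below for single members, therefore do not decide whether a gene differed. The 95% interval of the difference, derived from the same edgeR test and no separate result, included 0 in all 28 cases, and many of these intervals were wide. The data therefore do not show that the groups were alike. A single test of any difference among the 4 groups, which 0.141% of 14870 genes passed in edgeR, was passed by 0 of 7, with the smallest adjusted p at 0.647 for *Srebf2*.

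**Figure D1:**
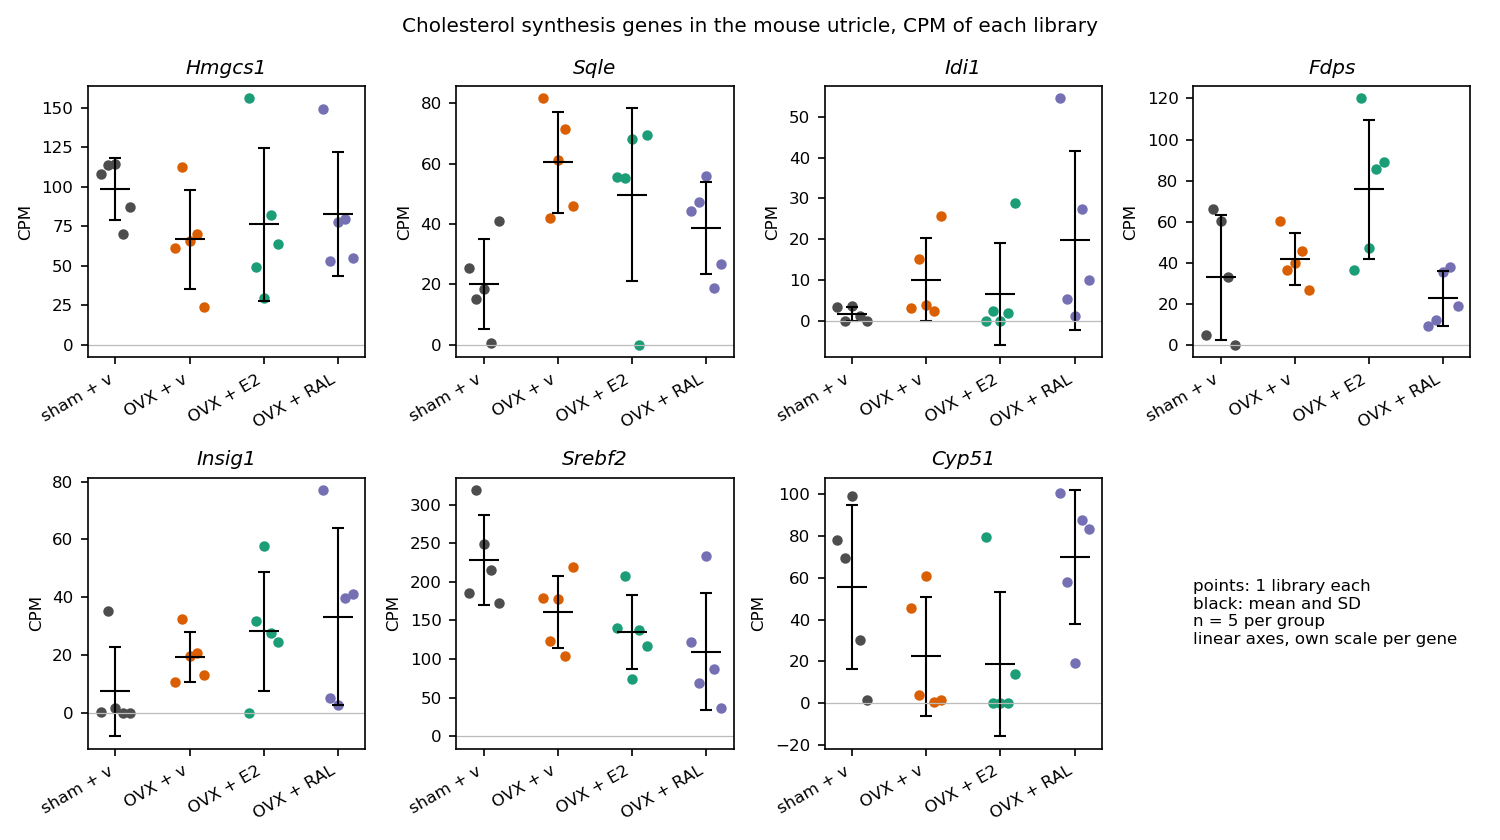
CPM of each of the 7 genes (linear vertical axes, scaled for each gene) in the 20 libraries, by group; points are libraries, bars are the mean and the SD of 5 libraries, and an SD bar can reach below 0. Only for *Sqle* do the points of the sham + v group, up to 41.1 CPM, all lie below those of the OVX + v group, from 42.0 CPM.

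*Hmgcs1* (chr13:120151915-120169796, plus strand, 10 exons in the canonical transcript) encodes the cytosolic HMG-CoA synthase, an early enzyme of the mevalonate segment. Its level was 108, 114, 114, 69.9 and 86.9 CPM in the libraries of the sham + v group, and 61.0, 112, 65.8, 70.3 and 23.7 CPM in those of the OVX + v group. With estradiol (OVX + E2) it was 156, 49.1, 29.7, 81.9 and 63.8 CPM, and with raloxifene (OVX + RAL) 149, 52.8, 77.5, 79.7 and 54.8 CPM. All groups overlapped, and the highest library of the OVX + E2 group and that of the OVX + RAL group stood well above the other 4 of their group. The means were 98.6 ± 19.6 (sham + v), 66.6 ± 31.5 (OVX + v), 76.1 ± 48.6 (OVX + E2) and 82.8 ± 39.1 CPM (OVX + RAL; SD, n = 5), a ratio of 1.48 between the highest and the lowest, which was the narrowest of the 7 genes. From the highest mean down, the order was sham + v, OVX + RAL, OVX + E2 and OVX + v, and no neighbours in it differed by more than the larger SD. The log2 fold change of sham + v over OVX + v was 0.57 (SE 0.62, 95% interval -0.64 to 1.77, adjusted p = 1.00 in edgeR).

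*Idi1* (chr13:8935537-8942487, plus strand, 5 exons), the isopentenyl-diphosphate isomerase, balances the pair of isoprenoid building blocks. It was the gene with the fewest counts, at 3.41, 0, 3.56, 1.12 and 0 CPM in the sham + v group and 3.11, 15.1, 3.97, 2.48 and 25.8 CPM in the OVX + v group. The OVX + E2 group had 0, 2.27, 0, 1.78 and 28.8 CPM, and the OVX + RAL group 54.5, 5.39, 1.17, 27.3 and 10.1 CPM. At least 3 counts were reached in 2 of 5 sham + v libraries, 5 of 5 OVX + v libraries, 2 of 5 OVX + E2 libraries and 4 of 5 OVX + RAL libraries, so that the level was close to the limit of detection in many of them. The means were 1.62 ± 1.76, 10.1 ± 10.2, 6.56 ± 12.5 and 19.7 ± 21.9 CPM in the same order. The ratio of the highest to the lowest mean, 12.2, was the widest of the 7 genes, yet every gap between neighbouring means was under the larger SD. The log2 fold change of sham + v over OVX + v was -2.58 with an interval from -8.15 to 2.98 (edgeR), the widest interval of this comparison.

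*Fdps* (chr3:89000895-89009266, minus strand, 10 exons) encodes farnesyl diphosphate synthase, the target of nitrogen-containing bisphosphonates. Its level was 4.87, 66.1, 60.5, 33.0 and 0 CPM in the sham + v group and 60.4, 36.4, 39.7, 45.6 and 26.5 CPM in the OVX + v group. The OVX + E2 group had 36.5, 120, 47.3, 85.5 and 89.1 CPM, and the OVX + RAL group 9.26, 11.8, 35.2, 37.8 and 18.7 CPM. Here 4 of the 5 OVX + E2 libraries lay above every OVX + RAL library, and the lowest of the OVX + E2 group was just below the highest of the OVX + RAL group. The log2 fold change between these groups was 1.74 (SE 1.11, 95% interval -0.43 to 3.91, adjusted p = 0.633 in edgeR). The exact permutation test over all groupings of 5 and 5 libraries gave p = 0.0159, two-sided, which was adjusted to 0.896 over all genes. The means were 32.9 ± 30.5 (sham + v), 41.7 ± 12.5 (OVX + v), 75.7 ± 33.9 (OVX + E2) and 22.6 ± 13.2 CPM (OVX + RAL), and only the step from OVX + E2 to OVX + v in the order of the means was wider than the larger SD of its pair. The summed level of 9 Schwann cell and myelin markers, none of them at 0 in all libraries of either group, was 2569 to 4839 CPM in the OVX + E2 group and 2000 to 2586 CPM in the OVX + RAL group, next to the lower totals of the OVX + E2 libraries given above. Spearman's rho of *Fdps* over the 20 libraries was 0.33 with these markers and -0.49 with the total counts. With macrophage and melanocyte markers it was -0.43 and -0.42. Macrophage markers averaged 144 CPM in OVX + E2 and 226 in OVX + RAL, and melanocyte markers 742 and 1228. Sham + v replicate 5 held 4797 CPM of the Schwann cell and myelin markers and no *Fdps* count. The part of these markers and of the totals in the *Fdps* values was not tested. Of 338 windows of 63 nucleotides in the last 400 of the *Fdps* transcript, 159 (47.0%) also occur in *Gm3571*, *Gm48326* or *Gm7979*, and the level of *Fdps* is uncertain for that reason, whereas the other 6 members shared 0 of 338.

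*Sqle* (chr15:59186926-59203041, plus strand, 11 exons) encodes squalene epoxidase, the first oxygen-requiring step and a control point of the sterol segment. It was at 25.3, 15.2, 18.4, 0.559 and 41.1 CPM in the sham + v group, and at 81.6, 42.0, 61.2, 71.3 and 46.0 CPM in the OVX + v group. All 5 sham + v libraries were below all 5 OVX + v libraries, although the nearest pair, 41.1 and 42.0 CPM, almost touched. This was the only separation in the 28 member comparisons, and 0.297% of all genes tested in this comparison had all sham + v libraries below all OVX + v libraries. The mean of the sham + v group was 20.1 ± 14.8 CPM and that of the OVX + v group 60.4 ± 16.7 CPM, which were the lowest and the highest of the 4 means. The log2 fold change was -1.58 (SE 1.04, 95% interval -3.63 to 0.46, adjusted p = 0.803 in edgeR). The exact permutation test gave p = 0.00794, the smallest that 5 against 5 libraries allow, and an adjusted p of 1.00 over all genes.

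With treatment, *Sqle* was at 55.7, 55.1, 68.1, 0 and 69.4 CPM in the OVX + E2 group and at 44.2, 47.4, 55.8, 18.9 and 26.9 CPM in the OVX + RAL group. The OVX + E2 libraries lay within the range of the OVX + v group apart from 1 library without a count, and 2 OVX + RAL libraries lay below every OVX + v library. The means were 49.7 ± 28.6 and 38.6 ± 15.3 CPM, and in the order of the means only the step from OVX + RAL down to sham + v was wider than the larger SD. The difference from OVX + v was -0.28 (interval -2.26 to 1.69) and -0.64 (interval -2.14 to 0.86) on the log2 scale in edgeR. The former was -1.12 in limma with 1 added to the CPM and -1.78 with 0.1 added, and 0.039 in edgeR without OVX + E2 replicate 14, the library at 0. Over the 20 libraries, Spearman's rho of *Sqle* was 0.53 with the summed skeletal muscle markers and 0.52 with the fibrocyte markers. These were the largest in size among the 12 marker lists, all of which share library and depth with it. Muscle markers summed to 78.4, 3.15, 0, 0 and 0.663 CPM in the sham + v libraries and to 138, 40.8, 48.2, 84.2 and 0 CPM in those of OVX + v. Fibrocyte markers were at 5868 to 7015 CPM in 4 sham + v libraries, below all 5 OVX + v libraries (7266 to 10556 CPM), and at 11705 CPM in sham + v replicate 1. *Sqle* was at 25.3 CPM in that library, and at 46.0 CPM in OVX + v replicate 10, which had no count of the muscle markers. Without sham + v replicate 1 the log2 fold change of *Sqle* was -1.68. The part of either marker sum in the *Sqle* values was not tested.

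*Cyp51* (chr5:4131145-4154746, minus strand, 10 exons), the lanosterol demethylase, is a cytochrome P450 of the sterol segment and the mammalian counterpart of the target of azole antifungals. It was at 77.9, 69.3, 99.0, 30.2 and 1.33 CPM in the sham + v group and at 45.5, 3.76, 60.7, 0.495 and 1.39 CPM in the OVX + v group. The OVX + E2 group had 79.6, 0, 0, 0 and 14.03 CPM, and the OVX + RAL group 101, 58.2, 19.4, 87.6 and 83.6 CPM. Libraries of the same group thus ranged from 2 counts to 167 (sham + v) and from 1 to 107 (OVX + v), and the OVX + RAL group was the only one with at least 3 counts in all 5 libraries. The means were 55.5 ± 39.2, 22.4 ± 28.6, 18.7 ± 34.6 and 69.9 ± 32.2 CPM. OVX + RAL against OVX + v gave the smallest adjusted p of all 28 comparisons in edgeR, 0.423, with a log2 fold change of 1.64 (SE 0.84, 95% interval -0.02 to 3.30, unadjusted p = 0.0527). This fold change was 1.33 to 2.45 with a library left out (2.45 without OVX + v replicate 8) and 2.84 with limma on log2(CPM + 1). Its unadjusted p in edgeR was 0.0427 with TMM and 0.0478 without the filter, with adjusted p values of 0.397 and 0.387. For OVX + E2 against OVX + RAL it was -1.89 (interval -4.22 to 0.44, adjusted p = 0.619 in edgeR), with 4 of 5 OVX + E2 libraries below every OVX + RAL library and an exact permutation p of 0.0317, adjusted to 0.896. The fold change was -4.27 without OVX + E2 replicate 11, which held 79.6 CPM, and between -2.13 and -1.57 without any other single library. The CPM of *Cyp51* had a Spearman's rho of 0.65 with the total counts over 20 libraries, and the totals of the OVX + E2 and OVX + RAL groups do not overlap. With the number of genes with a count the rho was 0.46. It was 0.54 with the adipocyte markers (median 0 CPM), 0.43 with the melanocyte and the macrophage markers, and -0.41 with the Schwann cell and myelin markers. The part of depth and of these markers in this difference was not tested.

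*Srebf2* (chr15:82031382-82089580, plus strand, 19 exons), which encodes SREBP-2, was counted at 3 or more in all 20 libraries, as was *Hmgcs1*. The sham + v group had 186, 319, 248, 215 and 173 CPM, and the OVX + v group 179, 124, 178, 104.5 and 219 CPM. The OVX + E2 group had 140, 208, 73.7, 137 and 116 CPM, and the OVX + RAL group 122, 68.4, 234, 86.6 and 36.5 CPM. The means were highest with sham + v (228 ± 58.5 CPM), followed by OVX + v (161 ± 46.3 CPM), OVX + E2 (135 ± 48.5 CPM) and OVX + RAL (109 ± 76.1 CPM), and only the step from sham + v to OVX + v was wider than the larger SD of its pair. All groups overlapped. The log2 fold change was 0.51 (SE 0.39, interval -0.26 to 1.27, adjusted p = 0.961) for sham + v over OVX + v and -0.56 (SE 0.42, interval -1.39 to 0.27, adjusted p = 0.943) for OVX + RAL over OVX + v in edgeR. For OVX + E2 over OVX + v it was -0.25, with an interval from -1.28 to 0.78. Without OVX + RAL replicate 18, the library at 234 CPM, the difference of OVX + RAL from OVX + v was -1.04 (unadjusted p = 0.0275 and adjusted p = 0.533 in edgeR). *Srebf2* had the smallest biological coefficient of variation of the 7 genes, 0.641, against a median of 1.79 over 14870 genes. Over the 20 libraries its Spearman's rho was 0.53 with the summed neuron markers and -0.48 with the macrophage markers. These were the largest in size among the 12 marker lists, all of which share library and depth with it. Neuron markers summed to 194 to 313 CPM (sham + v), 109 to 409 (OVX + v), 67.7 to 233 (OVX + E2) and 91.6 to 280 (OVX + RAL), and macrophage markers to 74.9 to 369, 139 to 275, 39.2 to 265 and 123 to 288 CPM. Their part in the *Srebf2* values was not tested.

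*Insig1* (chr5:28276361-28283660, plus strand, 5 exons) encodes a sterol sensor partner that retains SCAP, and is itself a target of SREBP-2. It was at 0.487, 35.2, 1.78, 0 and 0 CPM in the sham + v group and at 10.6, 32.6, 19.8, 20.8 and 13.2 CPM in the OVX + v group. The OVX + E2 group had 0, 31.7, 57.7, 27.6 and 24.5 CPM, and the OVX + RAL group 77.2, 5.39, 2.94, 39.9 and 41.3 CPM. In the sham + v group 4 libraries were below every OVX + v library, and the other one was above them all. The means were 7.49 ± 15.5, 19.4 ± 8.55, 28.3 ± 20.6 and 33.3 ± 30.5 CPM, and no neighbours in this order differed by more than the larger SD. The log2 fold change of sham + v over OVX + v was -1.37 (SE 2.04, interval -5.36 to 2.63, adjusted p = 1.00 in edgeR), with an exact permutation p of 0.0476 that was adjusted to 1.00. It was -4.93 without sham + v replicate 2, the library at 35.2 CPM, and between -1.52 and -1.05 without any other single library.

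**Figure D2:**
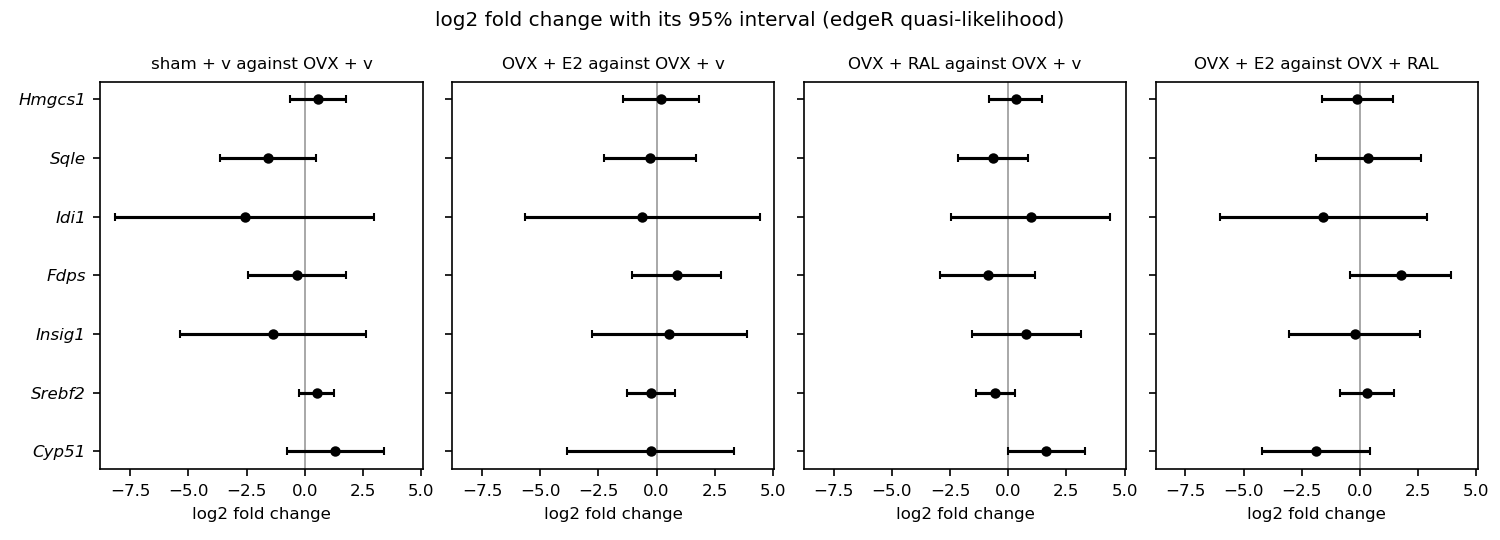
log2 fold change (horizontal axis) of each gene in the 4 comparisons, first group over second, with its 95% interval from edgeR. Every interval includes 0, the one of *Cyp51* between OVX + RAL and OVX + v reaching from -0.02 to 3.30, and those of *Idi1* are the widest in each comparison.

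The members did not share a direction in any comparison. Between sham + v and OVX + v, 3 of 7 had a log2 fold change above 0 (*Hmgcs1*, *Srebf2* and *Cyp51*), with a median of -0.34 against -0.02 over all genes, of which 49.0% were above 0. For OVX + E2 against OVX + v, 3 of 7 were above 0 (*Hmgcs1*, *Fdps* and *Insig1*), with a median of -0.25 against -0.06 over all genes (47.5% above 0). For OVX + RAL against OVX + v, 4 of 7 were above 0 (*Hmgcs1*, *Idi1*, *Insig1* and *Cyp51*), with a median of 0.31 against -0.03 (48.3%). For OVX + E2 against OVX + RAL, 3 of 7 were above 0 (*Sqle*, *Fdps* and *Srebf2*), with a median of -0.12 against -0.01 (49.5%). The first 3 comparisons share the OVX + v libraries. Each member median is the value of a single gene and moved with single libraries. *Fdps*, the median between sham + v and OVX + v, was at -0.76 to -0.021 with a library left out (-0.76 without sham + v replicate 2, -0.021 without sham + v replicate 5, near the median of all genes) and at -1.44 in limma with 1 added to the CPM. *Srebf2*, the median for OVX + E2 against OVX + v, was at -0.46 to -0.098, and *Hmgcs1*, the median of the remaining pair, at -0.0096 to 0.58 and at -0.56 to 0.20. OVX + RAL replicate 16 had the highest *Hmgcs1*, *Idi1*, *Insig1* and *Cyp51* of its group and the lowest *Fdps*. Without it, the log2 fold change of OVX + RAL over OVX + v went from 0.31 to -0.0096 for *Hmgcs1*, from 0.96 to 0.12 for *Idi1*, from 0.78 to 0.20 for *Insig1*, from 1.64 to 1.47 for *Cyp51* and from -0.88 to -0.69 for *Fdps*.

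The summed level of the 7 genes averaged 445 ± 133 CPM for sham + v, 381 ± 52.8 for OVX + v, 390 ± 83.8 for OVX + E2 and 376 ± 125 for OVX + RAL (SD, n = 5). It ranged from 249 to 619 CPM over the 20 libraries, and the 4 groups overlapped. What made up the sum differed between libraries of a group: in the OVX + RAL group *Srebf2* was 234 CPM in one library and 36.5 CPM in another, and *Cyp51* 19.4 and 83.6 CPM in the same libraries.

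**Figure D3:**
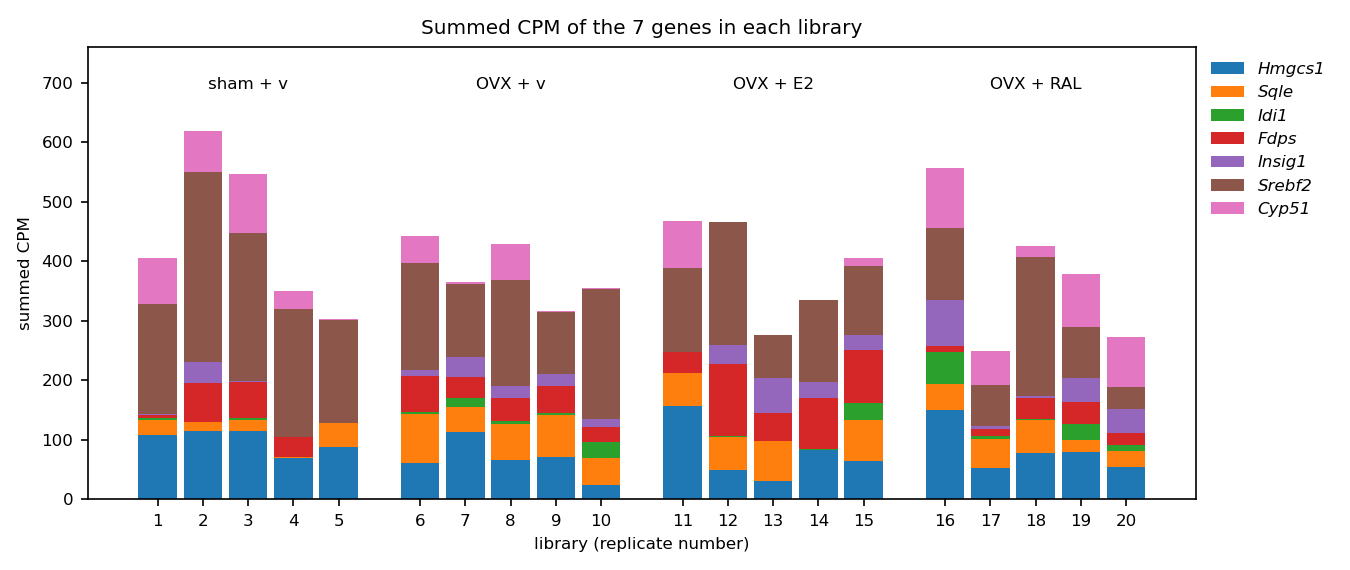
Summed CPM of the 7 genes (vertical axis, from 0) in each library, numbered as in the labels, with the share of each gene stacked. The sum ranged from 249 to 619 CPM, with *Srebf2* the largest share in most libraries and *Cyp51* nearly missing from some libraries of the sham + v, OVX + v and OVX + E2 groups.

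Over the 20 libraries the members did not move as a block. Spearman's rho between pairs ranged from -0.46 (*Insig1* and *Srebf2*) to 0.49 (*Hmgcs1* and *Cyp51*). Of the 3 genes with paired inverted CCAAT boxes, *Hmgcs1* and *Sqle* had -0.42, *Hmgcs1* and *Idi1* -0.12, and *Sqle* and *Idi1* 0.060. These are descriptions over libraries that share groups and differ in depth. At least 3 counts were found in 20 of 20 libraries for *Hmgcs1* and *Srebf2*, 19 for *Fdps*, 18 for *Sqle*, 16 for *Insig1*, 14 for *Cyp51* and 13 for *Idi1*. Of 14870 genes tested, 17.9% had 3 counts in all 20. The biological coefficient of variation in edgeR was 0.830 for *Hmgcs1*, 1.16 for *Fdps*, 1.17 for *Sqle*, 1.18 for *Cyp51*, 1.66 for *Insig1* and 2.46 for *Idi1*, and only the last was above the median of all genes. The genes whose CPM ranked most like the summed members, among 7256 with a mean of at least 20 CPM, were *Gm53012* (rho 0.80), *Cfap206* (0.79), *Dlk2* (0.74), *Kctd2* (0.73) and *Tra2b* (0.69). The summed members had a rho of 0.64 with the 15 other synthesis enzymes and of 0.62 with 6 neuron markers. For *Hmgcs1* the largest rho among the 12 marker lists was 0.55, with the hair cell markers.

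The other genes of the pathway were read from the same fits. Of the 8 genes of the mevalonate segment, 0 passed in any comparison in edgeR, and 0 had an unadjusted p under 0.05. Among the most abundant non-members were *Acat2*, an acetyl-CoA acetyltransferase, with 71.7 ± 46.2 (sham + v), 63.3 ± 24.9 (OVX + v), 107 ± 24.0 (OVX + E2) and 64.9 ± 31.5 CPM (OVX + RAL), and *Pmvk*, phosphomevalonate kinase, with 13.4 ± 15.2, 33.1 ± 18.1, 14.7 ± 25.8 and 48.3 ± 15.6 CPM. The list's median log2 fold change was 0.14, -0.61, 0.18 and -0.14 for sham + v, OVX + E2 and OVX + RAL against OVX + v and for OVX + E2 against OVX + RAL, beside medians of -0.02, -0.06, -0.03 and -0.01 over all genes.

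In the sterol segment 0 of 12 genes passed in edgeR in any comparison, with 11 tested for OVX + RAL against OVX + v. Its median log2 fold change was -0.37, -0.02, -0.19 and 0.34 in the order of comparisons used for the mevalonate segment. Below 0 were 9 of 12 for sham + v against OVX + v, where 49.0% of all genes were above 0. For OVX + E2 against OVX + RAL, 9 of 12 were above 0 (49.5% of all genes). An unadjusted p under 0.05 was found for 1 gene for sham + v and 1 for OVX + E2 against OVX + v (*Dhcr7* in both), for 2 for OVX + RAL against OVX + v (*Hsd17b7* and *Msmo1*) and for 1 for OVX + E2 against OVX + RAL (*Hsd17b7*). *Dhcr7*, the last reductase, was named after its values were seen and had no count in any OVX + v library. *Hsd17b7*, a ketosteroid reductase of the pathway that can also convert estrone to estradiol, had 131 ± 69.7, 161 ± 77.2, 220 ± 102 and 72.1 ± 47.1 CPM for sham + v, OVX + v and then the estradiol and raloxifene groups. Its log2 fold change was 1.61 (SE 0.55, adjusted p = 0.353 in edgeR) for OVX + E2 over OVX + RAL and -1.16 (SE 0.46, adjusted p = 0.402 in edgeR) for OVX + RAL over OVX + v. *Msmo1*, a sterol methyl oxidase, had 134 ± 73.6, 225 ± 102, 186 ± 100 and 128 ± 48.0 CPM, with a log2 fold change of -0.81 (SE 0.38, adjusted p = 0.402 in edgeR) for OVX + RAL over OVX + v. *Fdft1*, squalene synthase, had 95.5 ± 66.5, 104 ± 34.4, 115 ± 65.6 and 90.8 ± 11.3 CPM. All 20 enzymes together summed to 966 ± 188, 1115 ± 262, 1128 ± 426 and 898 ± 114 CPM.

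Among the 7 genes of SREBP regulation 0 passed in edgeR and 0 had an unadjusted p under 0.05 in any comparison. *Mbtps1*, the protease that makes the first cut in SREBP, had 121 ± 68.0, 148 ± 37.2, 150 ± 114 and 169 ± 33.8 CPM in that order of groups. *Srebf1*, which encodes the sister factor SREBP-1, had 126 ± 58.9, 142 ± 48.7, 125 ± 22.5 and 124 ± 27.0 CPM, and *Scap*, the escort of the SREBPs, 63.5 ± 58.9, 95.2 ± 23.9, 95.2 ± 58.9 and 63.7 ± 60.9 CPM. The list's median log2 fold change was -0.57 for sham + v against OVX + v, with 6 of 7 below 0 (49.0% of all genes were above 0). In the other comparisons it was -0.00047, -0.19 and 0.06.

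Of the 11 genes of uptake and intracellular transport 0 passed in edgeR and 0 had an unadjusted p under 0.05. *Lrp1*, an endocytic receptor for apolipoprotein E and many other ligands, ranged from 156 to 274 CPM with sham + v (mean 224 ± 47.7) and from 302 to 419 CPM with OVX + v (341 ± 53.9). With estradiol it was 243 to 358 CPM (316 ± 49.3), and with raloxifene 176 to 290 CPM (250 ± 44.7). All sham + v and all OVX + RAL libraries were below all OVX + v libraries, as in 0.297% and 0.314% of all genes tested, with the OVX + v libraries common to both comparisons. The log2 fold changes were -0.61 (SE 0.33, adjusted p = 0.503) and -0.45 (SE 0.31, adjusted p = 0.833) in edgeR. *Npc2* and *Npc1*, which carry cholesterol out of the lysosome, had means of 388 to 445 and of 33.8 to 53.4 CPM over the groups.

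Of the 9 genes of efflux, esterification and oxysterols, 8 were tested in each comparison with OVX + v and 7 between OVX + E2 and OVX + RAL, and 0 passed in edgeR. *Apoe*, the main lipid carrier made by glia, was by far the most abundant gene of the 6 pathway lists, with 4823 ± 1087, 5208 ± 403, 4122 ± 1024 and 4979 ± 1060 CPM, and a log2 fold change of -0.34 (SE 0.10, adjusted p = 0.351 in edgeR) for OVX + E2 over OVX + v. The sum of its list, of which it is the largest part, was 5753, 3742, 5281, 3428 and 3462 CPM in the OVX + E2 libraries. Macrophage markers, at 265, 113, 192, 39.2 and 112 CPM, ranked these libraries in the same order, and melanocyte and fibrocyte markers were also highest in replicates 11 and 13. The other groups did not share this throughout. The library with the highest macrophage sum had the lowest list sum in OVX + v (replicate 6, 275 and 4887 CPM) and in OVX + RAL (replicate 20, 288 and 4097 CPM). In sham + v it had the highest list sum (replicate 1, 369 and 7113 CPM). Their part in the *Apoe* values was not tested. The unadjusted p of *Apoe* was under 0.05 also for OVX + E2 against OVX + RAL, as were those of *Cyp27a1* in both OVX + E2 comparisons and of *Cyp7b1* for either treatment against OVX + v. *Cyp27a1* makes an oxysterol and *Cyp7b1* hydroxylates oxysterols further. Both were named after their values were seen and had no count in the groups concerned. *Soat1*, which esterifies cholesterol, had 87.9 ± 53.7, 76.7 ± 18.9, 91.6 ± 70.7 and 80.3 ± 41.7 CPM, and *Abca1*, a cholesterol exporter, 58.7 ± 55.8, 75.2 ± 24.6, 56.6 ± 35.1 and 45.8 ± 36.1 CPM. Of the 9 genes of fatty acid synthesis, which are driven mainly by SREBP-1, 0 passed in edgeR and 0 had an unadjusted p under 0.05. *Scd2*, *Fads2* and *Fads1*, all fatty acid desaturases, had means of 573 to 759, of 325 to 389 and of 89.0 to 185 CPM over the groups.

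**Figure D4:**
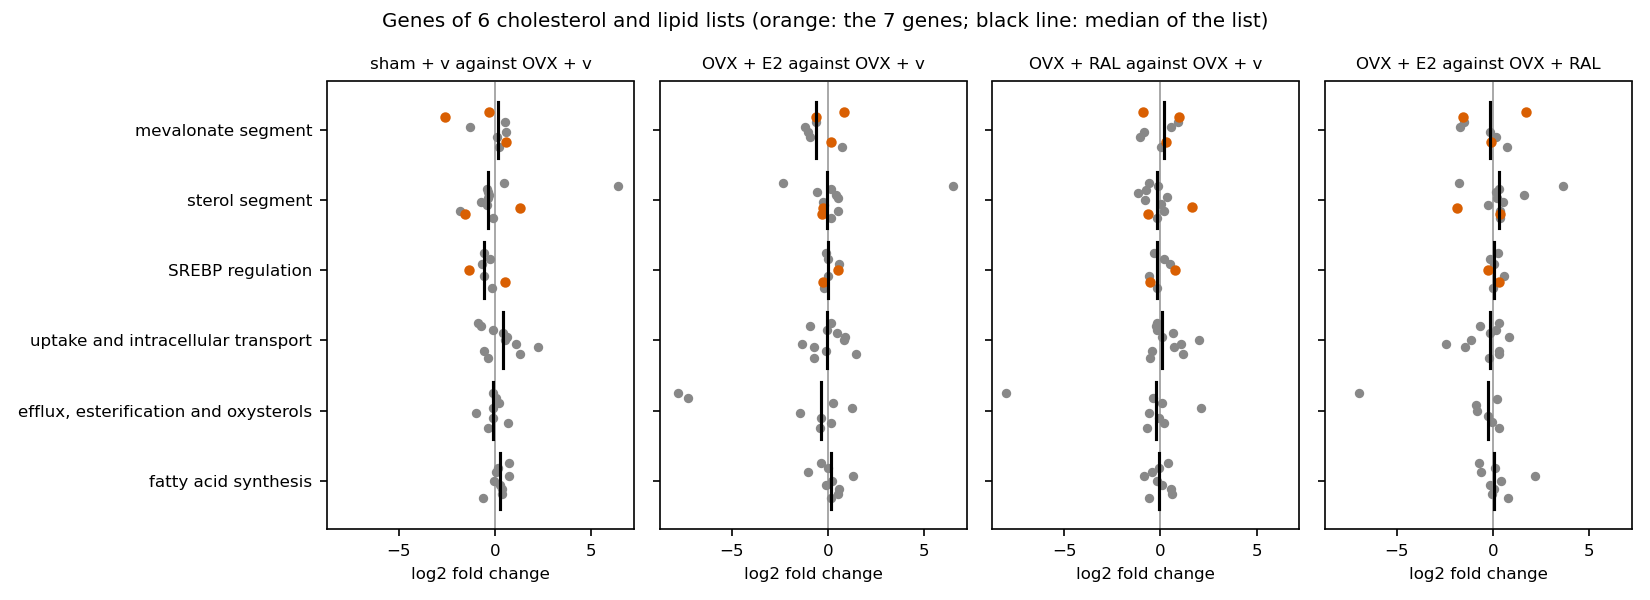
log2 fold change (horizontal axis, edgeR) of every tested gene of 6 lists in the 4 comparisons, with the 7 members in orange and the median of each list as a black line. No gene passed the test, and the points beyond 5 in size are genes without a count in one of the groups, whose fitted fold change has no interpretable size.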

How the data were processed

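RNA of whole utricles was sequenced in 4 groups of 5 libraries, named by the library numbers 1 to 20 of the labels, which also gave the groups. As the study's methods describe, the authors cut 12 nucleotides from the read start, dropped reads shorter than 20 nucleotides, mapped to the mouse genome GRCm39 (Ensembl release 105) and counted them per gene in CLC Genomics Workbench, with default mapping settings. How these settings treat multi-matching reads is not given in the sources used here. The deposited total counts are raw counts of reads per gene, and the 10 count columns that recur between tables were identical. The deposited CPM, TPM and RPKM, and the authors' fold changes and p-values of their own comparisons, were not used, and 0 columns belong to samples outside the series. Of 40 replicate pairs within groups, 0 were identical.

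Counts were divided by the total of their library to give CPM. Each comparison was fitted over all genes with at least 10 counts in its 10 libraries with edgeR 4.0.16 (glmQLFit and glmQLFTest, total count as library size, no TMM factor; R 4.3.3), with Benjamini-Hochberg adjustment and a threshold of 0.05, after testing on simulated data. All 7 members passed this filter in every comparison. The SE and the 95% interval of edgeR were derived from the fold change and the F value of its test. An interval therefore includes 0 where the unadjusted p is above 0.05. The exact permutation test used log2(CPM + 1), two-sided, over all groupings of 5 and 5. Reads carry no molecular identifiers, so that the limit of 3 counts covers counting error only. Alternatives were TMM, DESeq2 1.42.0, no filter, the default filter of edgeR, limma 3.58.1 on log2(CPM + 1) and log2(CPM + 0.1), glmQLFit in its robust form, a single fit of all 20 libraries, and leaving out each library. Promoters and transcripts were taken from GENCODE vM39 on GRCm39, and gene spans from the deposited tables.

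The members and lists were chosen with earlier results of these data known. Named were all members, the 3 most abundant non-members of each list, the most abundant gene of each of 12 marker lists, and the 5 genes most like the summed members. Exceptions are stated, and a few genes that this rule names are not reported here.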

Additional observations from a re-analysis of the deposited data

Results flagged for a closer look

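In 36 sets of 5 libraries, 5 held a library farther from the others than Dixon's 95% limit. For normally distributed values, chance gives about 1 in 20 sets, or 1.8. CPM values near 0 are skewed, so that 5 beside 1.8 does not show an excess. *Hmgcs1* was at 149 CPM in OVX + RAL replicate 16, with the other 4 at 52.8 to 79.7 CPM, in a library that also stood apart by its summed fibrocyte, dark cell and supporting cell markers. *Sqle* was at 0 CPM in OVX + E2 replicate 14, with the others at 55.1 to 69.4 CPM. *Idi1* was at 28.8 CPM in OVX + E2 replicate 15, with the others at 0 to 2.27 CPM. *Insig1* was at 35.2 CPM in sham + v replicate 2, with the others at 0 to 1.78 CPM. *Cyp51* was at 79.6 CPM in OVX + E2 replicate 11, with the others at 0 to 14.03 CPM. The causes were not tested.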

How the results depend on the processing

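No member passed the adjusted p of 0.05 under any alternative run, in any comparison. Of 220 fold changes of members under alternatives other than a library left out, 4 reversed and the smallest adjusted p was 0.387. With limma on log2(CPM + 1) and log2(CPM + 0.1), *Insig1* was -0.17 and -0.79 for OVX + E2 over OVX + v, and *Sqle* -0.43 and -1.07 for OVX + E2 over OVX + RAL. Of 280 fold changes with a library left out, 15 reversed and the smallest adjusted p was 0.489. For OVX + E2 over OVX + v these ranged from -2.64 to 0.55 for *Cyp51*, from -0.25 to 0.46 for *Hmgcs1*, from -3.22 to 0.093 for *Idi1* and from -0.43 to 0.039 for *Sqle*. For OVX + E2 over OVX + RAL they ranged from -0.56 to 0.20 for *Hmgcs1* and from -0.67 to 0.34 for *Insig1*, and for OVX + RAL over OVX + v from -0.0096 to 0.58 for *Hmgcs1*. For sham + v over OVX + v they ranged from -2.02 to -1.27 for *Sqle* and from 0.35 (without OVX + v replicate 10) to 0.84 for *Hmgcs1*. For *Srebf2* they ranged from -0.46 (without OVX + E2 replicate 12) to -0.098 (without OVX + E2 replicate 13) for OVX + E2 over OVX + v, and from -1.04 to -0.33 (without OVX + RAL replicate 20) for OVX + RAL over OVX + v. The 56 differences of the permutation test under its alternatives had 0 reversals. The summed levels moved by less than 1 SD. The default filter of edgeR left 6, 5, 7 and 6 members tested in the pairwise comparisons and 7 in the test of 4 groups.

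The number of all genes past 0.05 was 2 for sham + v against OVX + v, and 1 with TMM, 12 with DESeq2, 4 with limma on log2(CPM + 1), 0 with the default filter, limma on log2(CPM + 0.1) or the robust fit, and 1 to 10 with a library left out (10 without sham + v replicate 1). It was 8 for OVX + E2 against OVX + v, and 38 with DESeq2, 1 with the default filter, 3 with limma on log2(CPM + 0.1), 4 with the robust fit and 6 to 17 with a library left out (17 without OVX + E2 replicate 11). It was 4 for OVX + RAL against OVX + v, 0 with the default filter, limma on log2(CPM + 0.1) or the robust fit, and 3 to 11 with a library left out (11 without OVX + RAL replicate 16). It was 10 for OVX + E2 against OVX + RAL, and 42 with DESeq2, 0 with the default filter, 2 with limma on log2(CPM + 0.1), 6 with the robust fit, 16 with all 20 libraries in 1 fit and 8 to 16 with a library left out. Among the 4 groups it was 21, and 2 with DESeq2, 1 with the default filter, 0 and 0 with limma and 5 with the robust fit. The causes were not tested. TMM moved the median of all genes from -0.06 to -0.17 for OVX + E2 over OVX + v and from -0.01 to -0.16 for OVX + E2 over OVX + RAL. No paired analysis was possible because the library numbers are not shared between groups. At this depth 3 counts corresponded to 1.44 to 2.67 CPM, and lower levels were not detectable in a single library.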
